A study of Mus musculus with 7 samples.

Results

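Cells that carried no GFP were sorted from primary 4T1 tumours into an EpCAM+ and an EpCAM- fraction, and the 2 libraries were compared gene by gene. They are 2 of the 7 samples in the series, with 1 library in each group. Genes were taken into the comparison when they had at least 20 counts summed over both libraries, which 9518 of the 13236 genes in the count table did. At that limit, 107 genes had exactly 20 counts and were kept, and 109 genes had 19 counts and were not. The mice were BALB/c females given 100000 4T1-GFP cells, a GFP-labelled line of mouse mammary carcinoma, in the lower left mammary fat pad at 8 weeks of age. The tumours were removed 4 weeks later, at 12 weeks of age, and digested with collagenase A and DNase. Erythroid cells (Ter119) and leukocytes (CD45) were gated out of every fraction, so each library is Ter119- CD45- and differs from the others by GFP and EpCAM. The GFP+ EpCAM- and GFP+ EpCAM+ sorts of the same tumour type were sequenced in the same way and serve below as a reference. The sources used here give neither the number of mice behind a library nor whether mice were pooled. The fibroblast and fat pad libraries of the series were not used here.

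EpCAM is a membrane glycoprotein of epithelial cells that takes part in adhesion between neighbours, and antibodies to it are widely used to lift epithelial cells out of digested tissue. Epithelial cells are held together by tight junctions built from claudins, by adherens junctions built on E-cadherin and by desmosomes, which anchor the keratin filaments. Transcription factors of the Grainyhead-like, Ovo-like and Ets families are known to keep these genes on, whereas the repressors Snail and Zeb bind E-box motifs in some of their promoters. A mammary tumour also holds cells with no GFP label from the host, among them fibroblasts, endothelial cells, the pericytes and smooth muscle that surround vessels, fat cells, and remnants of mammary ducts.

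The 2 GFP- libraries totalled 1338608 counts for EpCAM- and 1717278 for EpCAM+, and the GFP+ libraries 1981977 and 2384264. Levels below are counts scaled to a common library size with TMM factors, written as normalised CPM. A set of 4 levels is always given in the order GFP- EpCAM-, GFP- EpCAM+, GFP+ EpCAM- and GFP+ EpCAM+. A count of 0 allows up to 3 counts, which is 2.33, 1.84, 1.44 and 1.21 CPM in that order. Each ratio carries an exact 95% Clopper-Pearson interval in parentheses that covers counting error only, since no group had a replicate. No test across samples was possible, and no difference below has a replicate check. The words higher and lower mark genes called because their whole interval was beyond 2-fold. A library at 0 was entered at 3 counts, which turns the ratio into a bound written "at least". Ribosomal protein genes took 8.58%, 14.3%, 10.8% and 10.3% of the counts.

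Epcam, the gene of the protein that defined the gate, differed with it, and so did the cell type markers Krt19 and Pecam1. Epcam (chromosome 17, 87635979 to 87651129, plus strand, protein coding, on GRCm38) stood at 35.7, 413, 26 and 293 CPM. The EpCAM+ libraries were high on both sides of the GFP gate, and the difference between the GFP- libraries was 11.6-fold (8.57 to 15.9). Krt19 (chromosome 11, 100140810 to 100148665, minus strand), a keratin of simple and ductal epithelia, stood at 69.9, 2163, 165 and 272 CPM and was 30.9-fold (25.1 to 38.6) higher in GFP- EpCAM+ than in GFP- EpCAM-, with both GFP+ libraries nearer to the lower of these levels. Pecam1 (chromosome 11, 106654217 to 106750628, minus strand), which encodes the endothelial adhesion protein CD31, stood at 1489, 20.8, 9.13 and 4.03 CPM and was 71.6-fold (51 to 104) lower, high in GFP- EpCAM- and low in the other 3 libraries. Ptprc is the gene of CD45, the leukocyte antigen that the sort gated out. It had 29 counts in the EpCAM- library of GFP- cells against 1 in the EpCAM+ library, and none in GFP+ cells.

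Of the 9518 genes compared, 698 (7.33%) were called higher in EpCAM+ and 1205 (12.7%) lower, together 1903 (20.0%). The median log2 ratio of all genes compared was 0.03, with an interquartile range from -0.74 to 0.67. A library had no count for 144 of these genes, of which 111 were at 0 in EpCAM+ and 33 in EpCAM-. Called higher in EpCAM+ were 20 of 30 junction genes, 11 of 12 keratins and 6 of 6 MHC class II genes, and called lower were 31 of 31 endothelial, 18 of 18 pericyte and 14 of 15 fibroblast identity genes. In bulk libraries, fewer cells of a type and less RNA per cell cannot be told apart. Gene lists below are given by how many of their compared members were called in each direction and by their median, to be read beside the shares and the median of all genes. A gene present in a lone library passes the limit of 20 counts through that library, so these counts describe the members that passed and not every member.

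**Figure D1:**
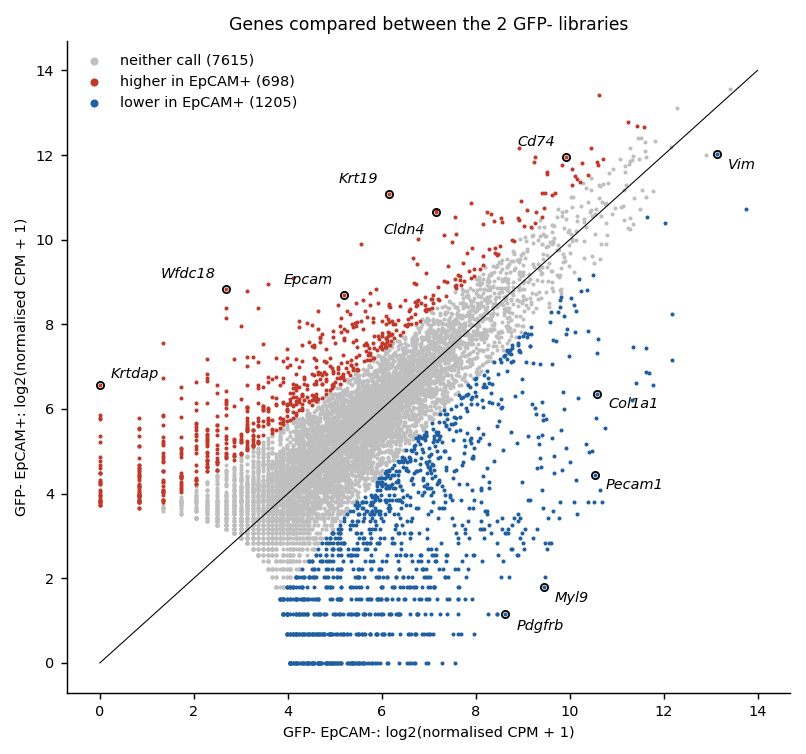
Each point is a gene compared between the 2 GFP- libraries, with log2(normalised CPM + 1) in EpCAM- on the x axis and in EpCAM+ on the y axis; the line marks equal levels, red points were called higher in EpCAM+ (698) and blue points lower (1205). Krt19, Epcam and Wfdc18 lie far above the line, and Pecam1, Myl9 and Pdgfrb far below it.

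Junction and adhesion genes were higher in the EpCAM+ cells. The table holds 32 members and 30 were compared, of which 20 were called higher and 1 lower, with a median log2 ratio of 2.77. Cldn4, a claudin of tight junctions, stood at 141, 1614, 202 and 1367 CPM, 11.4-fold (9.82 to 13.3) higher and high in both EpCAM+ sorts. Dsp, which encodes the desmosomal plaque protein desmoplakin, stood at 2.33, 75.9, 6.73 and 20.5 CPM and was 32.6-fold (10.9 to 160.0) higher on 3 counts in EpCAM-. Pkp1, a plakophilin of desmosomes, stood at 1.55, 35.5, 2.4 and 10.5 CPM and was 22.8-fold (6.04 to 193) higher, again from 2 counts in EpCAM-. Both desmosomal genes were highest in GFP- EpCAM+ and next highest in GFP+ EpCAM+. Spint2, an inhibitor of membrane serine proteases, stood at 191, 490.2, 203 and 300.2 CPM and was 2.56-fold (2.22 to 2.97) higher. Tjp1, which encodes the scaffold protein ZO-1 found at junctions of both epithelium and endothelium, was the 1 member called lower, at 68.4, 20.2, 35.1 and 39.9 CPM and 3.39-fold (2.25 to 5.22). F11r, a junctional adhesion molecule also present on endothelium and platelets, met neither call at a ratio of 0.588 (0.515 to 0.672).

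Keratins, the intermediate filaments of epithelium, were called higher in 11 of 12 and lower in 1 (median 3.25). The partners Krt8 and Krt18, which pair into the filaments of simple epithelia, stood at 142, 1675, 649 and 739.7 CPM and at 483, 4593, 1983 and 2576 CPM. Krt8 was 11.8-fold (10.1 to 13.8) and Krt18 9.5-fold (8.76 to 10.3) higher, and for both the GFP+ libraries lay between the GFP- ones. Krt7, a ductal keratin, stood at 237, 1866, 536 and 1457 CPM and was 7.88-fold (7.0 to 8.89) higher, with both EpCAM+ libraries above both EpCAM- ones. Krt15, a keratin of basal keratinocytes, stood at 7.77, 148, 7.21 and 17.3 CPM and was 19.1-fold (10.2 to 40.3) higher, above each of the other libraries. Krt6a, induced in activated epidermis, stood at 3.11, 61.8, 0 and 0 CPM and was 19.9-fold (7.53 to 74.4) higher, with no count in GFP+ cells. Its near-identical copies make the count of Krt6a uncertain. Krt20, an intestinal and urothelial keratin, went the other way at 17.9, 1.22, 0.481 and 0 CPM, 14.6-fold (3.61 to 128) lower on 23 and 2 counts.

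The list of epithelial transcription and splicing factors, which also holds Prom2 and Rab25, was higher as well. Of its members 12 of 15 were called higher and 0 lower, with the highest median of the 40 lists, 3.54. Ovol1, an Ovo-like repressor of mesenchymal genes, stood at 1.55, 56.9, 4.33 and 22.6 CPM and was 36.6-fold (9.86 to 307) higher. Elf3, an epithelial Ets factor, stood at 8.55, 149.9, 23.5 and 34.6 CPM and was 17.5-fold (9.63 to 35.6) higher, with the GFP+ libraries between the GFP- ones. Gata3, the luminal identity factor of the mammary gland, stood at 14.8, 146, 130.2 and 117 CPM and was 9.87-fold (6.18 to 16.7) higher, with both GFP+ libraries near the level of GFP- EpCAM+. Prom2, a membrane protein of epithelial protrusions kept in this list, stood at 3.11, 69.1, 4.81 and 24.2 CPM and was 22.3-fold (8.45 to 83.1) higher. Rab25, a small GTPase of epithelial recycling endosomes, stood at 14.8, 169, 4.33 and 60.0 CPM and was 11.4-fold (7.19 to 19.3) higher, high in both EpCAM+ sorts alone. Klf5 met neither call, at 83.9, 185, 220.1 and 154 CPM and a ratio of 2.21 (1.77 to 2.78).

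The promoters of 4 of these genes are shown because these epithelial genes were higher together and E-box motifs for Snail and Zeb are known in some of them. RefSeq windows of the 250 bases before the start were available for 7298 of the 9518 genes compared, on GRCm38.p6, and are printed 5′ to 3′ on the strand of the gene. Capitals mark the letters CAGGTG or CACCTG (the Snail and Zeb E-box, read on both strands), AACCNGTT or AACNGGTT (Grainyhead-like) and TGANTCA (AP-1, its own reverse complement). None of the marked letters overlap. Epcam (chr17:87635729-87635978, plus strand) holds an E-box at -187 and another at -19. Cldn4 (chr5:134946935-134947184, minus strand) holds AP-1 letters at -240 and -158 and an E-box at -14. Rab25 (chr3:88548280-88548529, minus strand) holds Grainyhead-like letters at -102 and E-boxes at -64 and -53. Krtdap (chr7:30787655-30787904, plus strand), the gene of the keratinocyte differentiation-associated protein described below, holds AP-1 letters at -81 and no E-box. These windows do not stand for all the genes named above. Those of Elf3, Krt7, Krt8 and Krt18 also hold an E-box, whereas those of Dsp, Gata3 and Prom2 hold none of the marked letters.
Epcam: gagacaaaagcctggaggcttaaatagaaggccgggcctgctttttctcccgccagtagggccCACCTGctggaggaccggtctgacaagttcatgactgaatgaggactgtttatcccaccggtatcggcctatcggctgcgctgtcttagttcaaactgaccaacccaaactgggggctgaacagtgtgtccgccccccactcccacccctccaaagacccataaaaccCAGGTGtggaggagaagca
Cldn4: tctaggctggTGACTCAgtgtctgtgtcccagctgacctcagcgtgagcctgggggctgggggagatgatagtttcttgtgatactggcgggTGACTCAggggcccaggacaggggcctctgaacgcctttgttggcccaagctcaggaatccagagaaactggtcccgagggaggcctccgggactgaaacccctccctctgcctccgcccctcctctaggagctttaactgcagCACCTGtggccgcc
Rab25: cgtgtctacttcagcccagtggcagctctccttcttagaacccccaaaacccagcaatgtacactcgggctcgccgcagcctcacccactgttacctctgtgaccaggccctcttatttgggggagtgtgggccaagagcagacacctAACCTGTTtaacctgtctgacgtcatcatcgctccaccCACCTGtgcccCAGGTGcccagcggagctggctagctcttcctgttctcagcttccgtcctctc
Krtdap: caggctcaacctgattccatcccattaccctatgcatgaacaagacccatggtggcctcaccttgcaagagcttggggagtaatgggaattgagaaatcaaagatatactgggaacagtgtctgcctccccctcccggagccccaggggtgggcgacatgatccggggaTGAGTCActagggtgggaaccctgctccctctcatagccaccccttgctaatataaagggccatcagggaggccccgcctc

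An E-box was present in 114 of the 491 windows of genes called higher (23.2%), in 127 of 871 of genes called lower (14.6%) and in 847 of 5936 of genes not called (14.3%). The share was 14.9% over the 7298 compared genes with a window (1088 genes) and 17.2% over all 32851 windows in the reference. Many compared list members had no window and are left out of the next shares. In the junction, keratin and epithelial factor lists, 18 of 32 windows of compared members held an E-box (56.25%). In the endothelial, pericyte and fibroblast identity lists 3 of 37 did (8.11%). AP-1 letters were present in 9.98% of the windows of genes called higher, 5.4% of those called lower and 4.14% of those not called. The share was 4.69% over the compared genes with a window and 6.75% over all windows in the reference. For the Grainyhead-like letters the shares were 2.65%, 1.72% and 1.35%, against 1.48% of the compared genes and 1.79% of all windows. Gene sets were counted with 1 window per gene, and the reference with every window. The shares are descriptions of letters in these windows, with no test, and a match is not a bound site. When the calls ask for 4-fold, the share among genes higher is 35.37%.

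Mammary genes followed the epithelial ones, and 10 of 15 luminal and milk genes were called higher and 1 lower (median 2.61). Wfdc18, a secreted protein of the whey acidic protein family, stood at 5.44, 459, 0 and 0 CPM and was 84.4-fold (40.8 to 211) higher. Ltf, which encodes the milk iron-binding protein lactoferrin, stood at 5.44, 332, 0 and 19.7 CPM and was 61-fold (29.4 to 152) higher. These genes were high in GFP- EpCAM+ alone, with no count of Wfdc18 in GFP+ cells. Wfdc2, a related secreted protein, stood at 601, 3658, 2884 and 3931 CPM and was 6.09-fold (5.65 to 6.57) higher, and Lcn2, which encodes lipocalin 2, stood at 189.6, 1120.5, 1107 and 1019.7 CPM and was 5.91-fold (5.17 to 6.78) higher. For Wfdc2 and Lcn2 the GFP+ libraries were close to GFP- EpCAM+. Areg, which encodes the EGF-receptor ligand amphiregulin of the growing duct, stood at 100.2, 755, 284 and 137 CPM and was 7.53-fold (6.28 to 9.1) higher, above both GFP+ libraries. Glycam1 was the member called lower, at 60.6, 6.12, 0 and 1.21 CPM and 9.9-fold (5.11 to 21.5); it encodes a mucin made both by lactating mammary epithelium and by high endothelial venules. Mfge8, a milk fat globule protein also made by stroma, met neither call at 607, 654, 323 and 379.5 CPM and a ratio of 1.08 (0.981 to 1.18).

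Of the milk genes outside the rule for named genes, some were picked out after their values were seen because they bear on the mammary label. Lalba, which encodes alpha-lactalbumin, stood at 3.11, 46.5, 0 and 0 CPM and was 15-fold (5.61 to 56.3) higher. Prlr, the prolactin receptor, stood at 1.55, 25.7, 0 and 0.403 CPM and was 16.5-fold (4.3 to 141) higher. Esr1, the oestrogen receptor, stood at 1.55, 18.4, 5.29 and 9.67 CPM and was 11.8-fold (3.0 to 102) higher. Lalba and Prlr had at most 1 count in the GFP+ libraries, and Esr1 was lower there than in GFP- EpCAM+. Of the caseins, Csn1s1 had 0 counts in each library and Csn3 had 1 count, in GFP- EpCAM+.

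Basal and hemidesmosome genes were called on the same side, with 6 of 9 higher and 0 lower (median 2.24). Krt14, a keratin of basal cells, stood at 109, 1039, 121 and 898 CPM and was 9.55-fold (8.04 to 11.4) higher, with both EpCAM+ libraries above both EpCAM- ones. Itga3, a laminin-binding integrin, stood at 283, 1332, 1075 and 1253 CPM and was 4.71-fold (4.21 to 5.28) higher. Lamb3, a chain of the laminin under epithelia, stood at 35.7, 237, 136 and 273 CPM and was 6.64-fold (4.89 to 9.23) higher. Krt5, the basal partner of Krt14, was scarce in the labelled tumour cells, at 10.9, 63, 0 and 4.43 CPM and 5.79-fold (3.3 to 11) higher. Itga6 and Dst, which are also expressed in endothelium and muscle, met neither call, with ratios of 0.591 (0.465 to 0.749) and 0.723 (0.597 to 0.875).

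The 15 genes called higher with the interval bound nearest to 1 farthest out included epidermal keratinocyte genes and genes of secreted proteins. Their levels in EpCAM+ ran from 53.2 to 2163 CPM. Fcgbp, which encodes a mucus protein that binds IgG, stood at 1.55, 187, 0 and 1.61 CPM and was 120.1-fold (33 to 996) higher on 2 counts in EpCAM-. Krt10, the keratin of suprabasal epidermis, stood at 7.77, 442, 13.5 and 11.3 CPM and was 56.9-fold (30.7 to 119) higher. Krtdap stood at 0, 93.6, 0 and 0 CPM and was at least 40.2-fold higher. Dmkn, which encodes the epidermal secreted protein dermokine, stood at 1.55, 105, 0 and 0 CPM and was 67.7-fold (18.5 to 564) higher, while Calm4, a calmodulin-like protein of epidermis, stood at 0, 54.5, 0 and 0 CPM and was at least 23.4-fold higher. These epidermal genes were low or at 0 in each of the other libraries.

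Others of the 15 included genes of secreted proteins, a cofactor and a surface protein. Dmbt1, a scavenger receptor released onto mucosal surfaces, stood at 5.44, 281, 0 and 0.403 CPM and was 51.8-fold (24.9 to 129) higher. Clca1, a secreted protein of mucus-producing cells, stood at 0, 56.9, 0 and 0 CPM and was at least 24.4-fold higher. Cited1, a transcriptional cofactor of the luminal mammary lineage, stood at 16.3, 542, 0.961 and 1.21 CPM and was 33.2-fold (21.6 to 54) higher. All of them were high in GFP- EpCAM+ alone. Stc2, which encodes the glycoprotein stanniocalcin 2, stood at 6.99, 248, 1.44 and 1.61 CPM and was 35.4-fold (18.5 to 78.1) higher, and Ly6d, a surface protein of keratinocytes, at 9.32, 334, 0.481 and 7.66 CPM and 35.8-fold (20.3 to 69.7). Fam25c was 45.5-fold (26.9 to 83.5) higher and Tmem56 at least 22.8-fold, both with at most 1 count in each GFP+ library. Of the 15 genes, 14 stood in both GFP+ libraries at under 10% of their level in GFP- EpCAM+, and 6 had no count in either; Krt19 was the exception.

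**Figure D2:**
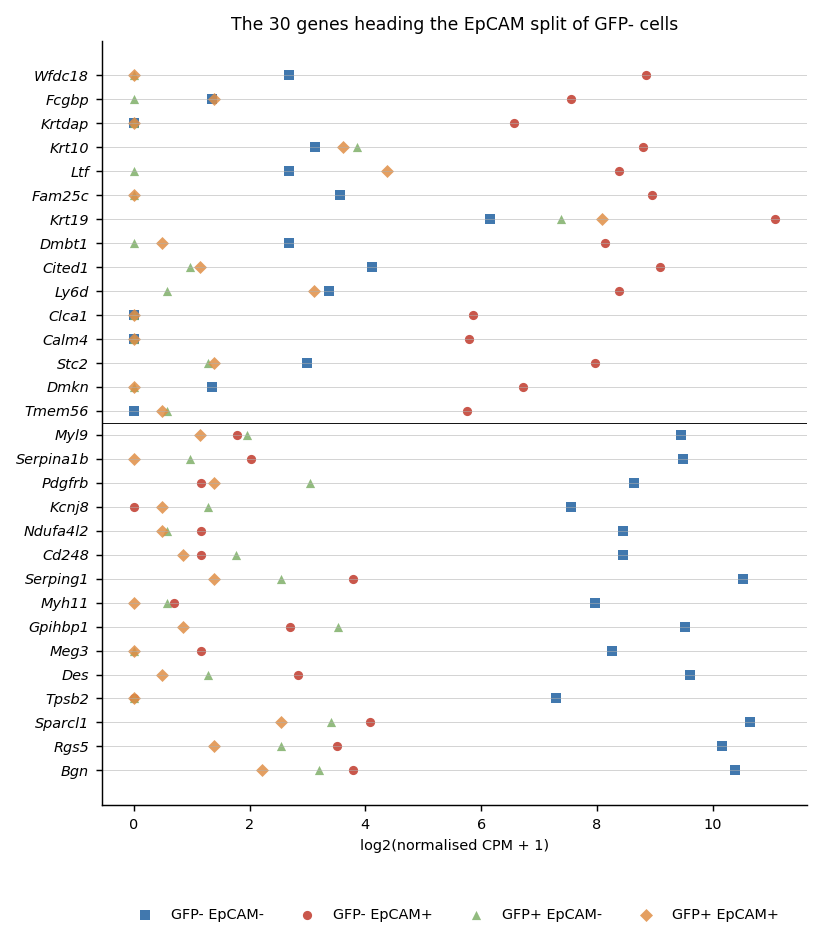
The 15 genes heading each direction are listed, those higher in GFP- EpCAM+ above the line and those lower below it, with log2(normalised CPM + 1) in each of the 4 libraries on the x axis. The red points of GFP- EpCAM+ stand at the right in the upper block, and the blue squares of GFP- EpCAM- in the lower block.

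Most genes called higher, unlike the leading ones, were also expressed in the labelled tumour cells. Of the 698 genes, 504 (72.2%) reached at least 50% of the GFP- EpCAM+ level in a GFP+ library, 79 (11.3%) reached between 10% and 50%, and 115 (16.5%) stayed under 10%. No count was seen in either GFP+ library for 58 genes. The same shares over all genes compared were not computed, so these shares do not set the called genes apart from other genes. Across the 9518 genes, the Spearman correlation of GFP- EpCAM+ with GFP- EpCAM- was 0.649, lower than its correlation with GFP+ EpCAM- (0.893) and with GFP+ EpCAM+ (0.921). GFP- EpCAM- stood at 0.654 and 0.633 with the same libraries, and the GFP+ libraries at 0.971 with each other. These correlations are across genes, which are not independent replicates, and share sequencing depth and broadly expressed genes. Whether cells of the injected line without GFP signal entered the GFP- gate was not tested, and GFP itself was not used here.

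Genes shared with the labelled tumour cells included secreted and calcium-binding proteins. Spp1, which encodes osteopontin, stood at 611, 3943, 7073 and 6433 CPM and was 6.46-fold (6.0 to 6.96) higher in GFP- EpCAM+, with both GFP+ libraries above it. Mmp9, a gelatinase, stood at 186, 1494, 929.9 and 1899 CPM and was 8.01-fold (7.01 to 9.19) higher. S100a6, a calcium-binding protein, stood at 1580.3, 10977, 5274 and 6520.1 CPM and was 6.95-fold (6.63 to 7.28) higher, above both GFP+ libraries. Car9, the carbonic anhydrase induced by low oxygen, stood at 7.77, 45.9, 169.6 and 132 CPM and was 5.91-fold (3.04 to 12.8) higher, with the GFP+ libraries above both GFP- ones. For each of these genes GFP- EpCAM- was the lowest library.

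The following were picked, after their values were seen, from the 115 genes that stayed in GFP+ cells under 10% of their GFP- EpCAM+ level. Apod, which encodes apolipoprotein D, stood at 34.2, 285, 0 and 0.403 CPM and was 8.32-fold (6.1 to 11.6) higher. Ptn, which encodes the growth factor pleiotrophin, stood at 17.9, 245, 0.481 and 0 CPM and was 13.7-fold (9.02 to 21.9) higher. Aqp5, a water channel of secretory glands, stood at 10.1, 183, 5.29 and 7.25 CPM and was 18.1-fold (10.4 to 34.4) higher. These were high in GFP- EpCAM+ alone, with a lower level of Apod in GFP- EpCAM-. Foxa1, a pioneer factor of luminal cells, stood at 3.11, 37.3, 2.88 and 3.63 CPM and was 12-fold (4.46 to 45.5) higher, and Elf5, the factor of alveolar luminal cells, at 0.777, 12.9, 0 and 0 CPM and 16.5-fold (2.66 to 684). Sox10, listed as a Schwann cell marker but also expressed in mammary epithelium, stood at 3.88, 45.3, 0 and 0 CPM and was 11.7-fold (4.78 to 37) higher. Cldn7, a claudin of glandular epithelium, stood at 12.4, 146, 4.81 and 12.9 CPM and was 11.7-fold (7.07 to 20.8) higher.

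**Figure D3:**
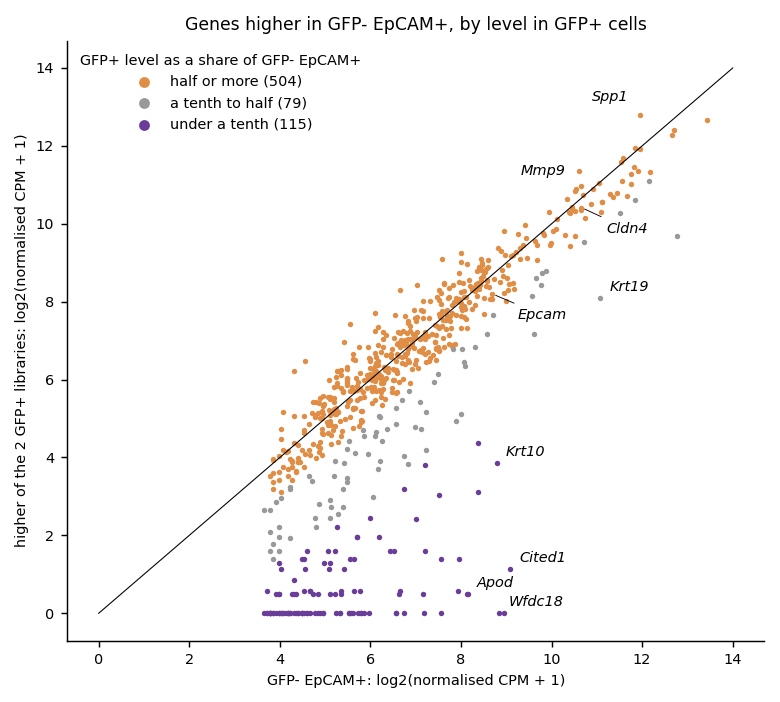
Each point is 1 of the 698 genes called higher in GFP- EpCAM+, with its level there on the x axis and the higher of its 2 GFP+ levels on the y axis, both as log2(normalised CPM + 1). The 504 orange genes lie along the line of equal levels, and the 115 purple genes lie near the bottom, at under 10% of the GFP- EpCAM+ level.

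Vessel genes were lower in EpCAM+. All 31 endothelial members compared were called lower, with a median log2 ratio of -5.75, and summed over the 32 in the table they came to 19025, 646, 417 and 384 CPM. Mmrn1 was at 0 in each library. Plvap, the diaphragm protein of fenestrated capillaries, stood at 3524, 94.2, 16.3 and 9.27 CPM and was 37.4-fold (31.8 to 44.2) lower, and Egfl7, a secreted protein of endothelium, at 1358, 30.6, 23.5 and 14.5 CPM and 44.4-fold (33.5 to 60.0). Kdr, the main VEGF receptor, stood at 119, 0.612, 0.481 and 1.21 CPM and was 194-fold (34.3 to 7722) lower, while Aplnr, the apelin receptor of growing vessels, was 296-fold (52.6 to 11734) lower, both on 1 count in EpCAM+. Gpihbp1, which holds lipoprotein lipase on capillaries, stood at 732, 5.51, 10.6 and 0.806 CPM and was 133-fold (69.7 to 292) lower. Of the 31 genes, 29 stood in both GFP+ libraries at under 10% of the GFP- EpCAM- level. The others were Eng, the TGF-beta co-receptor endoglin, at 1339, 227, 229 and 241 CPM and 5.9-fold (5.27 to 6.61) lower, and Apln, the apelin ligand, at 80.0, 18.4, 24 and 32.2 CPM and 4.36-fold (2.88 to 6.78) lower. The lymphatic list had 1 member with enough counts, Flt4, at 52.8, 0.612, 1.44 and 0.806 CPM and 86.3-fold (15 to 3459.6) lower, and Lyve1 had 0 counts in EpCAM+.

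Mural cells followed the endothelium, with 18 of 18 pericyte and smooth muscle genes called lower and a median of -6.0, the lowest of the lists with over 1 member compared. Pdgfrb, the platelet-derived growth factor receptor of pericytes and fibroblasts, stood at 396, 1.22, 7.21 and 1.61 CPM and was 324-fold (89.2 to 2681) lower. Rgs5, a pericyte regulator of G-protein signalling, stood at 1137, 10.4, 4.81 and 1.61 CPM and was 109-fold (68 to 188) lower. Myh11, the smooth muscle myosin heavy chain, stood at 250.2, 0.612, 0.481 and 0 CPM and was 409-fold (72.9 to 16197) lower, resting on 1 count in EpCAM+. Each was high in GFP- EpCAM- alone. Myl9, a smooth muscle myosin light chain, stood at 703, 2.45, 2.88 and 1.21 CPM and was 287-fold (112 to 1057) lower. Des, which encodes the muscle filament protein desmin, stood at 775, 6.12, 1.44 and 0.403 CPM and was 127-fold (68.5 to 265) lower, and Kcnj8, a potassium channel of pericytes, at 186, 0, 1.44 and 0.403 CPM and at least 102-fold. Ndufa4l2, a mitochondrial protein of hypoxic and mural cells, was 286-fold (78.8 to 2371) lower. Tagln, an actin-binding protein, kept more of its level, at 693, 56.9, 4.81 and 2.82 CPM and 12.2-fold (9.83 to 15.2) lower.

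The basement membrane beneath these cells was lower in part, since 10 of 14 members were called lower and 0 higher (median -3.58). Col4a1 and Col4a2, the chains of its main collagen, stood at 3180.1, 172, 289 and 278 CPM and at 2600.5, 176, 235 and 201 CPM. They were 18.5-fold (16.4 to 20.9) and 14.8-fold (13.1 to 16.7) lower. Nid1 and Nid2, the linker proteins, were 50.6-fold (25.4 to 118) and 40.2-fold (18.1 to 111) lower. Lama5, a laminin chain of epithelium and vessels, met neither call at 368, 599, 717 and 578 CPM and a ratio of 1.63 (1.46 to 1.82), and neither did Agrn, at 1.39 (1.18 to 1.63).

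Fibroblast identity genes were lower with the vessels. Of the 22 listed, 7 had too few counts. Of the 15 compared, 14 were called lower and 0 higher, with a median of -4.35. Pdgfrb is on this list and on the pericyte list, and the parts of fibroblasts and mural cells in these levels were not tested. Col1a1, the main chain of fibrillar collagen, stood at 1538, 80.8, 14.4 and 14.5 CPM and was 19-fold (16 to 22.9) lower. Col3a1 stood at 1096, 12.9, 2.4 and 1.21 CPM and was 85.3-fold (55.6 to 138) lower, and Col1a2 at 873, 9.79, 5.29 and 2.42 CPM and 89.2-fold (54.7 to 157). Thy1, a surface protein of fibroblasts and other stroma, stood at 758, 6.12, 7.69 and 2.01 CPM and was 124-fold (67 to 259) lower. Col1a1, Col3a1 and Col1a2 were lowest in the GFP+ libraries. Col6a1, of the same list and picked after its values were seen, was not. It stood at 507, 103, 382 and 212 CPM and was 4.93-fold (4.15 to 5.87) lower, with both GFP+ libraries above GFP- EpCAM+. Fbln2 was the member that met neither call, at 391, 462, 878 and 674 CPM and a ratio of 1.18 (1.05 to 1.33), with both GFP+ libraries above both GFP- ones. The markers Pdgfra and Pdpn did not reach 20 counts in the GFP- pair, with Pdgfra at 1.55, 6.12, 34.1 and 14.9 CPM and Pdpn at 2.33, 1.84, 0 and 0 CPM.

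Small leucine-rich proteoglycans, which bind collagen fibrils, were lower in 5 of 6 and higher in 1, with a median of -3.90. Bgn, which encodes biglycan, stood at 1339, 12.9, 8.17 and 3.63 CPM and was 104-fold (68 to 169) lower, and Dcn, which encodes decorin, at 183, 19.6, 0.961 and 2.82 CPM and 9.36-fold (6.45 to 14). Fmod and Aspn were at least 25.4-fold and at least 23.7-fold lower, with no count in the other 3 libraries. Podnl1 was the member called higher, at 22.5, 74.7, 102 and 103 CPM and 3.31-fold (2.2 to 5.15).

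Genes of steady-state fibroblasts gave a mixed picture, with 7 of 14 called lower, 1 higher and a median of -2.80, which turns to 0.27 when at least 100 counts are asked for. Cd34, shared by fibroblasts and endothelium, stood at 795, 11, 3.36 and 3.22 CPM and was 72.2-fold (45.4 to 122) lower. Cd248, the stromal protein endosialin, stood at 349, 1.22, 2.4 and 0.806 CPM and was 285-fold (78.4 to 2361) lower, and Col15a1 at 743, 9.79, 5.29 and 1.21 CPM and 75.9-fold (46.5 to 133). Igfbp5, an IGF-binding protein also made by mammary epithelium, was the member called higher, at 62.9, 188, 0 and 0 CPM and 2.99-fold (2.34 to 3.87). Gpx3, a secreted glutathione peroxidase, met neither call at a ratio of 0.757 (0.71 to 0.808). Its levels of 1488, 1127, 1.44 and 1.61 CPM set both GFP- libraries far above both GFP+ ones.

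Transcription factors of the epithelial to mesenchymal transition were lower in 6 of 6 compared, with a median of -3.42, but along different patterns. Prrx1, a mesenchymal homeobox factor, stood at 80.0, 1.22, 0 and 0 CPM and was 65.4-fold (17.6 to 547) lower. Zeb1 stood at 58.3, 1.84, 5.29 and 2.01 CPM and was 31.7-fold (10.5 to 157) lower, and Snai2 at 17.9, 0.612, 0 and 0 CPM and 29.2-fold (4.74 to 1203). These were high in GFP- EpCAM- alone. Snai1 stood at 242, 76.5, 175 and 122 CPM and was 3.16-fold (2.56 to 3.92) lower, and Twist1 at 148, 50.8, 195 and 101 CPM and 2.91-fold (2.23 to 3.81). For Snai1 and Twist1, GFP- EpCAM+ was the lowest of the 4 libraries. Tcf4, an E-protein in this list, was likewise lowest there, at 144, 36.7, 75.9 and 63.3 CPM and 3.91-fold (2.91 to 5.33) lower.

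Matrix and inflammatory genes differed among themselves. Of 12 matricellular genes 1 was called higher and 4 lower, with a median of -0.67. Sparc, which encodes osteonectin, stood at 4607, 302, 429.6 and 269 CPM and was 15.3-fold (13.9 to 16.8) lower, and Postn, which encodes periostin, at 632, 23.3, 3.36 and 4.03 CPM and 27.2-fold (19.6 to 38.7). Sparcl1, a relative of Sparc, stood at 1591, 15.9, 9.61 and 4.83 CPM and was lower, by a fold with an interval from 68.1 to 153. Spp1, given above, was the member called higher. Fn1, which encodes fibronectin, met neither call at 971, 1436, 2882 and 2287 CPM and a ratio of 1.48 (1.38 to 1.58), with the GFP+ libraries above both GFP- ones. Tnc and Cyr61 met neither call, at ratios of 1.32 (1.07 to 1.64) and 0.883 (0.816 to 0.956).

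Inflammatory fibroblast genes were called higher in 3 and lower in 6 of 18, with a median of 0.45 that turns to -0.29 when at least 100 counts are asked for. Il6 stood at 669, 23.9, 4.81 and 2.42 CPM and was 28-fold (20.3 to 39.7) lower, and Cxcl12, the stromal chemokine, at 301, 11, 0 and 0 CPM and 27.3-fold (17 to 46.6). Ccl11, an eosinophil chemoattractant, was 56.5-fold (21.7 to 209.6) lower. Cxcl2, a neutrophil chemoattractant, stood at 1555, 199, 86 and 197 CPM and was 7.82-fold (6.95 to 8.82) lower. Its relative Cxcl1 met neither call, at 1763, 1353, 1129.8 and 2013 CPM and a ratio of 0.767 (0.723 to 0.814). Has2, a hyaluronan synthase, was 3.15-fold (2.25 to 4.49) higher at 34.2, 108, 196 and 175 CPM, and Il33, the nuclear alarmin, 3.07-fold (2.04 to 4.75) higher at 23.3, 71.6, 2.88 and 0.403 CPM. Il33 was nearly absent from GFP+ cells, whereas Has2 was highest there.

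Complement genes were called higher in 2 and lower in 8 of 14, with a median of -1.57. Serping1, which encodes the C1 inhibitor, stood at 1469, 12.9, 4.81 and 1.61 CPM and was 114-fold (74.6 to 185) lower. Cfb, which encodes factor B, was 3.42-fold (2.84 to 4.14) lower. C3, the central component, went the other way at 106, 494, 486 and 896 CPM, 4.68-fold (3.9 to 5.65) higher. C4b was 2.68-fold (2.12 to 3.41) higher at 72.3, 193, 184 and 176 CPM, a count made uncertain by its near-identical copy C4a.

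Genes of blood-derived cells, which the CD45 gate removes, were detected mostly in EpCAM-. Of 11 mast cell and basophil genes 9 were called lower and 0 higher, with a median of -5.43, and the 12 in the table summed to 2531, 89.3, 23.5 and 12.9 CPM. Hdc, which makes histamine, stood at 1423, 31.2, 2.4 and 0 CPM and was 45.6-fold (34.5 to 61.5) lower. Mcpt8, a basophil protease, stood at 219.9, 3.06, 0.481 and 3.63 CPM and was 71.9-fold (30.4 to 223) lower, and Il4, which basophils secrete, at 289.8, 6.73, 0 and 0 CPM and 43.1-fold (23.8 to 87). Tpsb2, a mast cell tryptase, was at least 84.6-fold lower, with 200 counts in EpCAM- and 0 in each of the other libraries. The signal was highest in GFP- EpCAM-, beside 29 counts of Ptprc. Its part in the genes lower in EpCAM+ was not tested. Kit, which mast cells share with luminal progenitors, met neither call at a ratio of 0.438 (0.318 to 0.60).

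Myeloid genes differed less between the fractions. Of 16 macrophage genes 6 were called lower and 0 higher, with a median of -1.23, and the 20 in the table summed to 2406, 1275, 142 and 208 CPM. Tyrobp, a signalling adaptor of myeloid receptors, stood at 189.6, 22.6, 0.481 and 4.83 CPM and was 8.37-fold (5.91 to 12.2) lower. Itgam, which encodes CD11b, was 9.7-fold (5.15 to 20.2) lower, and Adgre1, which encodes F4/80, had 25 counts in EpCAM- and 1 in EpCAM+. C1qa, a complement gene of macrophages, met neither call at 111, 56.9, 3.36 and 10.5 CPM and a ratio of 0.512 (0.39 to 0.67), and neither did Apoe, at 922, 709.9, 30.8 and 41.1 CPM and a ratio of 0.77 (0.709 to 0.835). Both were higher in the GFP- libraries than in the GFP+ ones. Of 6 neutrophil genes 4 were called lower, with a median of -2.83, and S100a9 stood at 31.9, 6.12, 1.92 and 0.806 CPM, 5.21-fold (2.56 to 11.7) lower. All 3 lymphocyte genes compared were called lower, with a median of -5.05, among them Gzmb, which encodes the cytotoxic protease granzyme B, at 122, 3.67, 0 and 0 CPM and 33.2-fold (14.9 to 91.9). Of the erythroid and platelet list only Pf4 had enough counts, and it met neither call at a ratio of 0.477 (0.271 to 0.821).

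Adipocyte and skeletal muscle genes were also found in EpCAM-. Of 10 adipocyte genes 6 were called lower and 1 higher, with a median of -4.99. Fabp4, a fatty acid carrier of fat cells that capillaries also make, stood at 2577, 72.8, 8.17 and 9.67 CPM and was 35.4-fold (29.5 to 42.9) lower, and Cd36, the fatty acid receptor of both, at 166, 1.84, 0 and 0 CPM and 90.6-fold (30.6 to 443). Adipoq, the defining product of fat cells, had 0 counts in each library but GFP- EpCAM-, which stood at 5.44 CPM, and Plin1 had 0 counts in all of them. Scd1, a fatty acid desaturase, was called higher at 35, 106, 15.4 and 10.1 CPM and 3.05-fold (2.18 to 4.33). Skeletal muscle genes were called lower in 9 of 10, with a median of -4.67, among them Acta1, the muscle actin, at 567, 13.5, 0.961 and 0.806 CPM and 42.1-fold (27.6 to 67.6). Schwann genes were called lower in 3 and higher in 1 of 7, with a median of -2.34. Pmp22, a myelin protein, was 8.0-fold (5.42 to 12.2) lower.

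The levels of whole marker lists were also summed over all members, called or not, in the same order of 4 libraries. A few abundant members can carry such a sum, so it does not measure how much of a cell type remained. The 19 pericyte and smooth muscle genes in the table summed to 6891, 190.3, 52.4 and 46.3 CPM. The 22 fibroblast identity genes summed to 8257, 826, 1637 and 1052 CPM, and the 22 steady-state fibroblast genes to 4923, 3162, 886 and 1782 CPM. Vessel-wall sums were thus far smaller in EpCAM+, whereas the steady-state fibroblast sum and the macrophage sum given above kept over 50% of their EpCAM- level. Members not called lower carried these 2 sums. The 7 steady-state fibroblast genes called lower kept 1.29% of their summed EpCAM- level, and the 6 macrophage genes called lower 15.2%. Those genes were selected by the call, so their shares are low by construction. The 15 adipocyte genes summed to 3301, 267, 55.7 and 55.6 CPM, and the 10 skeletal muscle genes to 2002, 200.1, 332 and 249.8 CPM. The 9 neutrophil genes summed to 154, 20.8, 2.88 and 2.01 CPM, and the 7 lymphocyte genes to 188, 7.96, 0.481 and 0.806 CPM. GFP- EpCAM- held the highest sum of each of these lists.

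**Figure D4:**
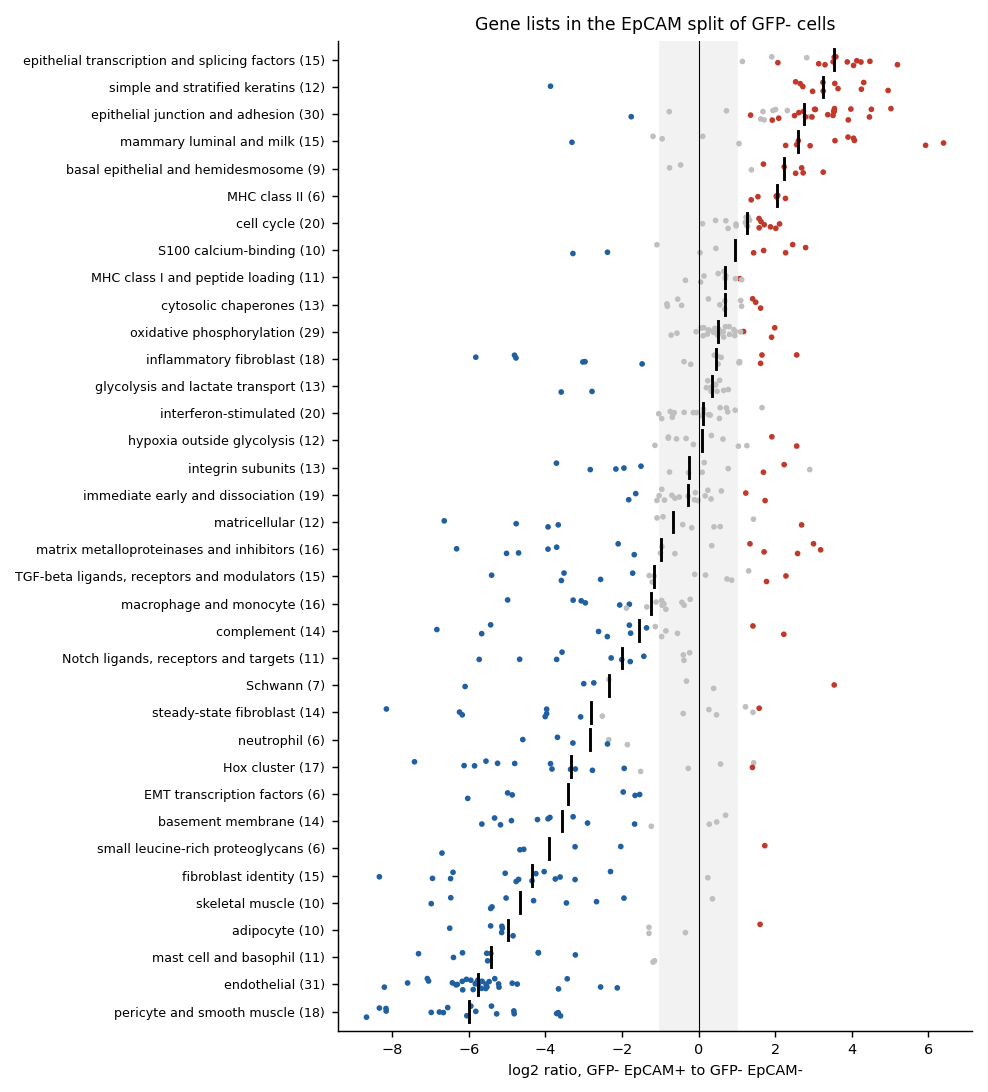
Each point is a member of the gene list named at the left, placed by its log2 ratio of GFP- EpCAM+ to GFP- EpCAM-, with the number compared in parentheses; bars mark medians, red points were called higher, blue points lower and grey points neither, and the grey band spans 2-fold. Epithelial lists lie at the top, with medians from 2.24 to 3.54, and endothelial and pericyte lists at the bottom, at -5.75 and -6.0.

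MHC class II genes, which present antigen to helper T cells and which epithelium can express under interferon-gamma, were called higher in 6 of 6, with a median of 2.04. Cd74, the invariant chain, stood at 966, 3977, 2123 and 3863 CPM and was 4.12-fold (3.88 to 4.38) higher. H2-Aa stood at 734, 3077, 2017 and 3309 CPM and was 4.19-fold (3.91 to 4.5) higher, and H2-Eb1 at 736, 3005, 1589.7 and 2195 CPM and 4.08-fold (3.81 to 4.38). GFP- EpCAM- was the lowest library for each of them, and the labelled tumour cells also carried high levels. Beside this, macrophage markers summed to 2406 CPM in GFP- EpCAM- and 1275 CPM in GFP- EpCAM+, and the part of macrophages in the MHC class II levels was not tested. MHC class I and peptide loading genes met neither call in 10 of 11, with a median of 0.70; B2m, the shared light chain, was the 1 called higher, at 2.11-fold (2.03 to 2.18). Of the 20 genes compared from the interferon-stimulated list none was called in either direction, with a median of 0.11. Irf1 stood at 734, 800.4, 807 and 997 CPM with a ratio of 1.09 (1.0 to 1.19). Mx2, an interferon-stimulated gene outside that list and picked after its values were seen, was called lower. It stood at 48.9, 14.1, 24 and 31.8 CPM and was 3.48-fold (2.13 to 5.88) lower.

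Cell cycle genes leaned towards EpCAM+, of which 7 of 20 were called higher and 0 lower (median 1.27). Plk1, a mitotic kinase, stood at 23.3, 101, 84.6 and 129 CPM and was 4.33-fold (2.92 to 6.62) higher, Mcm6, a subunit of the replicative helicase, was 4.05-fold (3.03 to 5.49) higher and Birc5, which encodes survivin, 3.28-fold (2.56 to 4.26). Pcna met neither call, at 235, 253, 210.5 and 241 CPM and a ratio of 1.07 (0.923 to 1.25). Genes of energy metabolism are to be read beside the 7.33% of all genes called higher and the 12.7% called lower. Glycolysis genes were called lower in 2 of 13 and higher in 0 (median 0.34), hypoxia genes higher in 2 of 12 (median 0.10) and oxidative phosphorylation genes higher in 3 of 29 (median 0.50). Pkm, the pyruvate kinase, stood at 1204, 1762, 3009 and 2473 CPM with a ratio of 1.46 (1.37 to 1.56), and the lactate exporter Slc16a3 was 12-fold (7.28 to 21.2) lower at 125, 10.4, 0.961 and 1.21 CPM. Egln3, an oxygen sensor, was 3.77-fold (2.69 to 5.39) higher, and Vegfa met neither call at 37.3, 89.3, 298 and 162 CPM and a ratio of 2.4 (1.72 to 3.39). Ndufb9 was 3.97-fold (3.6 to 4.39) higher, from 369.8 to 1468 CPM.

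Immediate early and stress genes, which tissue digestion can induce, were called about as often as all genes (20.0%). Of 19 immediate early genes 2 were called higher and 2 lower, with a median of -0.27. Fos stood at 3142, 3937, 2165 and 2464 CPM, with a ratio of 1.25 (1.2 to 1.3). Atf3 was 2.35-fold (2.21 to 2.5) and Fosl1 3.33-fold (2.67 to 4.19) higher, and Socs3 3.54-fold (3.2 to 3.93) and Btg2 3.12-fold (2.67 to 3.66) lower. Cytosolic chaperones were called higher in 3 of 13, with a median of 0.68; Hspe1 was 3.07-fold (2.6 to 3.65) higher and Hspd1 2.66-fold (2.16 to 3.29). Hspa1b was 2.81-fold (2.51 to 3.15) higher and Hspa1a met neither call at 1.19 (1.05 to 1.36), and the near-identity of these copies makes their separate counts uncertain.

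Of 11 Notch genes 8 were called lower and 0 higher, with a median of -2.01. Notch3, the receptor of mural cells, stood at 688, 52.6, 5.29 and 14.5 CPM and was 13.1-fold (10.5 to 16.5) lower, Notch4, that of endothelium, was 53.1-fold (24.1 to 146) lower and the ligand Dll4 25.5-fold (13.2 to 56.7). Hes1 met neither call at a ratio of 0.851 (0.742 to 0.975). Of 15 TGF-beta genes 2 were called higher and 5 lower, with a median of -1.16. Acvrl1, an endothelial receptor, was 42.4-fold (17.8 to 132) lower and Tgfbr3 12-fold (7.36 to 20.7), whereas Inhba, which encodes the activin A subunit, was 3.42-fold (2.73 to 4.32) higher and Ltbp3, a latent TGF-beta binding protein, 4.86-fold (4.04 to 5.89). Of 4 EGF-family genes 2 were called higher, Areg and the receptor Erbb2, with a median of 2.05; Erbb2 stood at 9.32, 36.7, 22.1 and 33.8 CPM and was 3.94-fold (2.1 to 8.04) higher. Hbegf met neither call, at 260.3, 449, 659.8 and 890.4 CPM and a ratio of 1.73 (1.51 to 1.97).

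Integrins were called higher in 2 and lower in 5 of 13, with a median of -0.26 that turns to 0.09 when at least 100 counts are asked for. Itgb4, the hemidesmosome integrin, stood at 145, 470.0, 581 and 631 CPM and was 3.23-fold (2.75 to 3.82) higher. Itga5, the fibronectin receptor chain, was 7.11-fold (3.59 to 15.6) lower and Itga9 at least 13.1-fold. Itgb1, shared by most cells, met neither call at 0.834 (0.757 to 0.919). Metalloproteinases and their inhibitors were called higher in 5 and lower in 7 of 16, with a median of -0.98. Mmp3 stood at 10.9, 99.1, 312 and 163 CPM and was 9.11-fold (5.28 to 17) higher, and Mmp10 was 6.01-fold (2.86 to 14.5) higher, beside Mmp9 above. Adamts1 stood at 838, 195, 116 and 197 CPM and was 4.29-fold (3.78 to 4.88) lower, and Mmp14, a membrane collagenase, met neither call at 0.651 (0.582 to 0.729). S100 genes were called higher in 5 and lower in 2 of 10, with a median of 0.94: S100a4 stood at 322, 1555, 2613 and 2267 CPM and was 4.83-fold (4.36 to 5.38) higher, and S100a14 at 35.7, 196, 13.9 and 114 CPM and 5.5-fold (4.03 to 7.66).

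Hox genes, which record position along the body axis, were called lower in 12 of 17 and higher in 1, with a median of -3.34. Hoxd9 stood at 105, 0.612, 0.961 and 0 CPM and was 171-fold (30.2 to 6819.5) lower, Hoxd8 was 69.8-fold (23.5 to 342) lower, Hoxb7 57.8-fold (15.5 to 484) and Hoxc10 47-fold (7.92 to 1905). Hoxa5 was the member called higher, at 55.2, 146, 130.2 and 149 CPM and 2.65-fold (2.03 to 3.51). Hoxa7, of the same cluster, was 3.85-fold (2.59 to 5.85) lower at 80.0, 20.8, 31.7 and 27 CPM. Hoxa10 and Hoxa2 met neither call at ratios of 2.71 (1.26 to 6.48) and 1.49 (0.627 to 3.79). The genes of the D, B and C clusters named here were at or near 0 in GFP- EpCAM+ and in both GFP+ libraries, whereas Hoxa5, Hoxa7, Hoxa10 and Hoxa2 were present in those 3 libraries.

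The 15 genes called lower with the interval bound farthest out ran from 155 to 1591 CPM in EpCAM- and from 0 to 15.9 CPM in EpCAM+. Each stood in both GFP+ libraries at under 10% of its GFP- EpCAM- level. Beside those described above, Meg3, an imprinted long non-coding RNA, stood at 307, 1.22, 0 and 0 CPM and was 251-fold (69 to 2078) lower. Serpina1b, of the alpha-1-antitrypsin family, stood at 714, 3.06, 0.961 and 0 CPM and was 233-fold (99.6 to 720.4) lower, on a count made uncertain by near-identical copies. Of all 1205 genes called lower, 731 (60.7%) stayed in both GFP+ libraries under 10% of the GFP- EpCAM- level, 379 reached between 10% and 50%, and 95 (7.88%) reached 50% or more. These shares, too, were not computed over all genes compared.

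The same EpCAM gate on GFP+ cells gave far fewer calls. Of 9100 genes compared there, 67 (0.736%) were called higher in EpCAM+ and 36 (0.396%) lower, 1.13% in either direction, against 20.0% in GFP- cells. The difference in the number of calls between the GFP classes has no replicate behind it. Of the 8405 genes compared in both, 43 were called higher in both. That is 7.50% of the 573 genes called higher in GFP- cells that were also compared in GFP+ cells. It is 64.2% of all 67 genes called higher in GFP+ cells, whether or not they were compared in GFP- cells. Called lower in both were 21 genes, 4.13% of 508 and 58.3% of 36 on the same unlike bases. Over the 573 of the 698 genes called higher in GFP- cells that were compared in GFP+ cells, the median log2 ratio there was 0.30. Over the 508 of the 1205 genes called lower, it was -0.25. The other called genes had too few counts in GFP+ cells for a ratio.

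Junction genes were also called higher by the gate on GFP+ cells. Of 26 compared there 9 were called higher, with a median of 1.41, against 2.77 over the 30 compared in GFP- cells. Cdh1, Cldn3, Cldn4, Epcam, Perp and St14 were among those called higher in both gates. The Epcam ratio was 11.3-fold (8.55 to 15.2) in GFP+ cells beside 11.6-fold (8.57 to 15.9) in GFP- cells. Cldn4 stood at 6.76-fold (6.1 to 7.49) beside 11.4-fold (9.82 to 13.3), Rab25 at 13.9-fold (7.12 to 30.9) beside 11.4-fold (7.19 to 19.3) and Krt14 at 7.42-fold (6.51 to 8.48) beside 9.55-fold (8.04 to 11.4). The intervals of the 2 gates overlap for Epcam, Rab25 and Krt14 and not for Cldn4. Krt19, Krt18 and Krt8 met neither call in GFP+ cells, at ratios of 1.65 (1.44 to 1.88), 1.3 (1.25 to 1.35) and 1.14 (1.06 to 1.22). Endothelial genes had 10 members with enough counts in GFP+ cells, of which 1 was called lower, and MHC class II had 7, of which 0 were called, at a median of 0.47.

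**Figure D5:**
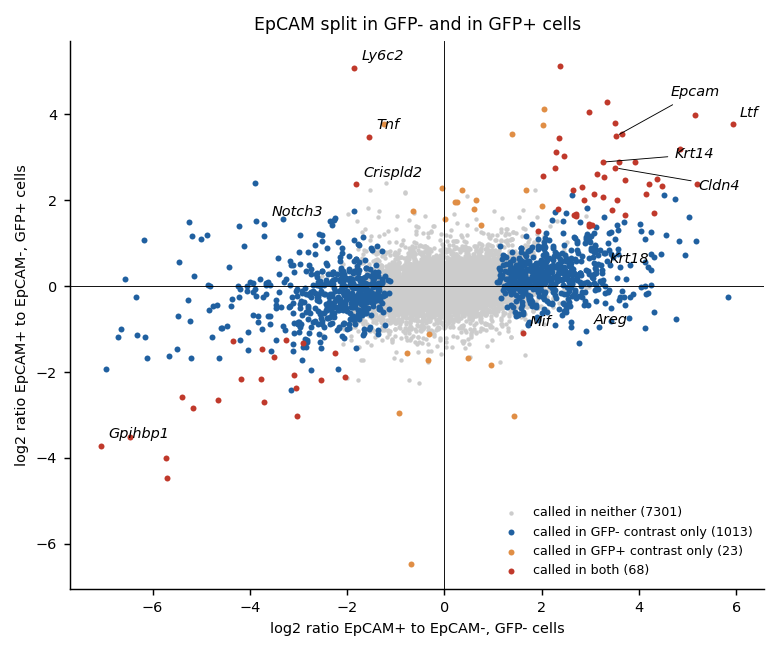
Each point is 1 of the 8405 genes compared in both gates, with the log2 ratio of EpCAM+ to EpCAM- in GFP- cells on the x axis and in GFP+ cells on the y axis. The cloud is wide along the x axis and narrow along the y axis; Epcam, Cldn4 and Krt14 lie at the upper right with 43 genes called higher in both, and Ly6c2, Tnf and Crispld2 at the upper left.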

How the data were processed

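The authors deposited whole-number read counts for each gene symbol, and the totals differ between libraries as raw counts do. Per the labels, the libraries hold 3′ mRNA ends of sorted cells and the second read carried a molecular identifier. Per the submitters' processing notes the work used STAR, HTSeq, cutadapt, bcl2fastq and DESeq2 with mm10. Their roles, versions and strand handling, and whether reads were collapsed by identifier, were not given. Counts may therefore hold amplification duplicates, and genes with near-identical copies, pseudogenes or overlapping neighbours are uncertain.

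The table lists 13257 names. Among them 21, with 0.156% to 0.198% of the counts, were dates made by spreadsheet software, and these rows were dropped. Symbols matched GENCODE M21 on GRCm38 for 96.6% of genes. Totals were scaled by TMM over the 4 libraries (edgeR 4.0.16, R 4.3.3). Ratios of counts were given exact 95% Clopper-Pearson intervals (scipy 1.17.1, Python 3.11.15), for genes with at least 20 counts in the compared pair, and a call needed the interval beyond 2-fold. Where a library had 0 counts, 3 were entered, and the resulting bound carries no counting error of its partner. Genes with 3 counts or fewer in both got no ratio. Medians of lists include these bounds. The procedure was run on simulated counts drawn with counting error only. That run cannot speak to spread between libraries or to amplification duplicates. DESeq2 1.42.0 gave size factors as an alternative. The other alternatives were total counts, factors from the compared pair, totals without ribosomal protein genes, at least 100 counts, no filter, a 4-fold rule and thinning.

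The rule for named genes took 15 per direction, by the interval bound nearest to 1 and without predicted genes, clone names, pseudogenes and ribosomal proteins. From each of 40 gene lists it took up to 4 members by count, then up to 2 per direction by ratio. It added the sort markers and genes called in opposite directions in GFP- and GFP+ cells. Not every gene the rule allows is printed, some are not reported here, and genes outside it that stand for absent markers (Pdgfra, Pdpn, Adipoq, Plin1, Mmrn1, Lyve1, caseins) or for calls in both gates (Cdh1, Cldn3, Perp, St14) were chosen after their values were seen. The comparison, the gene lists and the rule were chosen with earlier results of these data known.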

Additional observations from a re-analysis of the deposited data

Results flagged for a closer look

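In 4 genes the calls were opposite in GFP- and in GFP+ cells, and the difference between these log2 ratios, GFP- minus GFP+, was not tested because each group is 1 library. Ly6c2, a surface protein of monocytes and endothelium, stood at 176, 49, 1.92 and 65.7 CPM, a log2 ratio of -1.85 in GFP- and 5.09 in GFP+ cells, a difference of -6.94. Its count is uncertain because Ly6c1 is a near-identical copy. Tnf, which encodes tumour necrosis factor, stood at 122, 41.6, 1.44 and 16.1 CPM, with log2 ratios of -1.55 and 3.48 and a difference of -5.03. Crispld2, a secreted glycoprotein, stood at 239, 67.9, 8.65 and 45.1 CPM, with log2 ratios of -1.82 and 2.38 and a difference of -4.20. For these 3 genes GFP+ EpCAM- was the lowest library and GFP- EpCAM- the highest. Mif, which encodes the macrophage migration inhibitory factor, stood at 478, 1459, 1831 and 858 CPM, with log2 ratios of 1.61 and -1.09 and a difference of 2.70. The Mif count is uncertain because of its many processed pseudogenes.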

How the results depend on the processing

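The calls rest on 1 library per group, so nothing here measures spread between mice or sorts. DESeq2 size factors, total counts, factors from the compared libraries only, totals without ribosomal protein genes and thinning to equal depth left each count of genes called in either gate within 1.5 times the values reported. Of the 274 named genes, 4 lost their call with DESeq2 factors and 59 under a 4-fold rule, 1 of those compared after thinning lost it, and none changed direction. The 274 include genes that met neither call and so had none to lose. Across scalings the all-gene median shifted by at most 0.06 on the log2 scale, with DESeq2 factors. Asking for at least 100 counts gave 438 genes higher and 632 lower in GFP- cells and 37 and 17 in GFP+ cells, a correlation of 0.472 between the GFP- libraries in place of 0.649 and an E-box in 12.05% of the genes lower. The same minimum turned the medians of the steady-state fibroblast, inflammatory fibroblast and integrin lists to 0.27, -0.29 and 0.094, by leaving fewer members. With no count filter the correlation was 0.772. The 4-fold rule, stricter by construction, gave 214 higher and 702 lower in GFP- cells (23.4% of the calls higher in place of 36.7%), 20 and 8 in GFP+ cells, 8 lists with more members higher than lower in place of 13, and an E-box in 35.37% of the genes higher. At these depths a level under 3 counts, between 1.21 and 2.33 CPM, cannot be told from 0. No paired analysis was possible because each group has 1 library, and the replicate numbers in the groups only name a library.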

Other observations

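Among the 95 genes called lower in GFP- EpCAM+ that reached 50% or more of the GFP- EpCAM- level in a GFP+ library, several were lower in the EpCAM+ sort of both GFP classes. They were picked after their values were seen. Serpine2, which encodes a secreted inhibitor of serine proteases, stood at 413, 7.96, 384 and 17.3 CPM, 51.9-fold (30.1 to 98) lower in GFP- EpCAM+ and 22.2-fold (16.3 to 30.9) lower in GFP+ EpCAM+. H19, an imprinted long non-coding RNA, stood at 611, 63.6, 1113 and 468 CPM, 9.6-fold (7.81 to 11.9) lower in GFP- and 2.38-fold (2.22 to 2.55) lower in GFP+ cells. Saa3, an acute-phase gene, stood at 49.7, 6.12, 102 and 12.5 CPM, 8.13-fold (4.14 to 17.8) and 8.16-fold (5.58 to 12.3) lower. Both EpCAM- libraries were thus high for these genes. Vim, which encodes the mesenchymal filament protein vimentin, stood at 9064, 4141, 8664 and 6035 CPM and was 2.19-fold (2.12 to 2.26) lower in GFP- EpCAM+, while its ratio in GFP+ cells, 0.697 (0.682 to 0.712), met neither call.

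Ribosomal protein genes as a group took more of the GFP- EpCAM+ counts (14.3%) than of the GFP- EpCAM- counts (8.58%). Rpl7a was picked after its values were seen because it went against that, at 1012, 151, 976 and 502 CPM and 6.7-fold (5.84 to 7.71) lower in GFP- EpCAM+, with GFP+ EpCAM- near the level of GFP- EpCAM-. Rpl7a has processed pseudogenes, so its count is uncertain.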
